A study of Mus musculus with 6 samples.

Results

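Matricellular and provisional matrix genes were described in CT26 tumors with and without incomplete radiofrequency ablation (iRFA). The 10 genes Fn1, Vcan, Tnc, Postn, Thbs1, Thbs2, Ccn1, Ccn2, Sparc and Fap were chosen by name for what their proteins do, out of 32110 genes in the deposited values. The choice was made with earlier results of these data known, so counts among the 10 are descriptions. Each of the 10 was found by its mouse symbol in GENCODE release 21, and each passed the minimum mean of 0.5 FPKM (fragments per kilobase of gene, scaled to the mapped total, so that levels of different genes can be compared) that left 15560 genes for testing. CT26, a transplantable carcinoma line of the mouse colon, arose in the BALB/c strain. For each tumor 1000000 cells were injected into the right flank of wild-type male Balb/c mice, whose age is not given in the labels. Treatment began once the longest diameter was about 0.8 cm. The untreated group is 3 tumors with no treatment. The iRFA group is 3 residual tumors whose centre had been held at 70 °C for 1.5 to 2.0 min so that part of the tumor became necrotic, and they were taken 3 days later. Each tumor is 1 bulk RNA-seq library. Per the labels, both groups are CT26 tumors in the same strain. Markers of epithelium and mesothelium split the libraries otherwise than these labels do, as given further on with Krt8 and Upk3b, so it is unsure whether untreated replicates 1 and 2 hold the same tissue as the other 4 libraries and whether the label of untreated replicate 3 is right. Each comparison of the groups below is one of libraries as labelled.

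Provisional matrix is the loose scaffold that forms where tissue is injured. It is built on fibronectin, versican and hyaluronan and is later replaced by fibrillar collagen. Matricellular proteins, among them tenascins, periostin, thrombospondins, the CCN family and SPARC, are secreted into the matrix but carry no load, and they act on cells through integrins and other receptors. They are known from wounds and from the stroma of tumors, where fibroblasts are a main source.

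The sequences at the start sites of Ccn1, Postn and Tnc are shown because Ccn1 had the narrowest range of the 10 genes over the 6 libraries and Tnc the widest, and because Postn and Ccn1 both hold a TATA motif close to the start site. The sequences are from RefSeq (GRCm38.p6), each with 250 bases before and 50 after the annotated start site, 5′ to 3′ on the strand of the gene. Such a window was found for 6 of the 10 genes, the others being Sparc, Thbs2 and Vcan. The window of Sparc starts from a site 3103 bases from the GENCODE start of the gene, and the other 5 from sites at most 27 bases away. Fn1, Thbs1, Ccn2 and Fap had no entry. Capitals mark the TATA, GC box and TEAD motifs spelled out below them, on either strand. The windows lie at chr3:145649936-145650235 (minus strand) for Ccn1, chr3:54360857-54361156 (plus strand) for Postn and chr4:64046966-64047265 (minus strand) for Tnc.
Ccn1: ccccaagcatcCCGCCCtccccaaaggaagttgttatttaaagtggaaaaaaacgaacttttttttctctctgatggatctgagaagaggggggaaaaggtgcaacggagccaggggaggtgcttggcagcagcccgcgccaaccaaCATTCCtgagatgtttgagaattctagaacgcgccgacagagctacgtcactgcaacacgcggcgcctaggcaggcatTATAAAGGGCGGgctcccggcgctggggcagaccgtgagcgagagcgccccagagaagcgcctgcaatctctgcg
Postn: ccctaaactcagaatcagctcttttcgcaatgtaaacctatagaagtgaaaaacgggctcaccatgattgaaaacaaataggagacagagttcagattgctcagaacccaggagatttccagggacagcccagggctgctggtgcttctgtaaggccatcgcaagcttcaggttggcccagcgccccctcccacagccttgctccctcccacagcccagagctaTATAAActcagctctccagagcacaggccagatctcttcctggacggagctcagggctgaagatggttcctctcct
Tnc: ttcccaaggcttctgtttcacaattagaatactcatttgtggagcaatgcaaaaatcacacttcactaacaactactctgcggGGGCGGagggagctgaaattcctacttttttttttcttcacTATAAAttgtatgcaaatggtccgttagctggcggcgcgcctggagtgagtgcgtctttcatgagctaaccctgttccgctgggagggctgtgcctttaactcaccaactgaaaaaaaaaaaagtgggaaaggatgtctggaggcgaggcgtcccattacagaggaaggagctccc
TATAAA, the letters of the TATA box, began 25 bases before the start site in Ccn1 and 26 bases before it in Postn. It began 126 bases before the start site in Tnc, and 126 bases before it on the other strand in Thbs2. These are 4 of the 6 windows, and 13.6% of 32544 windows of the same length held the motif. GGAATG, the letters that TEAD factors are known to bind, was in 1 of 6, as CATTCC beginning 103 bases before the start site of Ccn1, and 14.6% of all windows held it. GGGCGG, a GC box, was in the windows of Ccn1, Tnc and Vcan, 3 of 6, against 35.9% of all windows. The AP-1 letters TGANTCA and the CArG box were in 0 of 6 windows, against 7.79% and 1.64% of all windows. No match overlapped a match of another motif. A match is a description of the letters and was not tested as a site.

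The library labelled untreated replicate 3 stood apart from the other untreated libraries. Across the 15560 genes tested, the Pearson correlation was 0.983 between untreated replicates 1 and 2, 0.801 to 0.807 between either of them and this library, and 0.983 to 0.987 between this library and those of the iRFA group. Genes are not independent replicates, and these values describe the libraries. The FPKM of the libraries summed to between 313940 and 345320, and read depth, which FPKM do not hold, was between 1.00 and 1.10 times that of untreated replicate 1 by the steps between low values. The median SD over genes on the log2(FPKM + 1) scale was 0.295 in the untreated group and 0.096 in the iRFA group. Results are therefore given with all 6 libraries, without untreated replicate 3, and without untreated replicates 1 and 2. In the last setting 1 untreated library is left, and its spread is taken from the iRFA group.

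With all 6 libraries, none of the 10 genes passed the test. Limma on log2(FPKM + 1), with Benjamini-Hochberg adjustment over all genes and a threshold of 0.05, called 0 of 10 and 0.0% of all genes tested. At an unadjusted p under 0.05 it gave 0 of the 10 higher and 1 lower after iRFA (Sparc), against 1236 higher and 1050 lower among all genes. The libraries of the groups overlapped for each of the 10 genes, whereas among all genes 11.4% had every iRFA library above, and 10.5% below, all untreated libraries. The median log2 fold change of the 10 genes was −1.49, beside 0.02 over all genes. Of the 10, 8 were negative and 2 positive, beside 7490 and 8070 of all 15560 genes tested. Counts of signs in the gene lists below are to be read against these. Without untreated replicate 3, 8 of 10 were lower (adjusted p under 0.05), beside 30.3% of all genes, and 1 was higher (Fn1), beside 33.9%. Those 8 were also lower by more than 1 on the log2 scale, as were 12.6% of all genes. The medians were then −2.24 and 0.04. Without untreated replicates 1 and 2, the median of the 10 turned to 0.34, and that over all genes was −0.0043. With 1 untreated library left, calls are not counted in this setting. The direction for most of the 10 genes thus rested on which untreated libraries were compared. In bulk RNA, fewer cells of a type and less RNA per cell cannot be told apart.

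**Figure D1:**
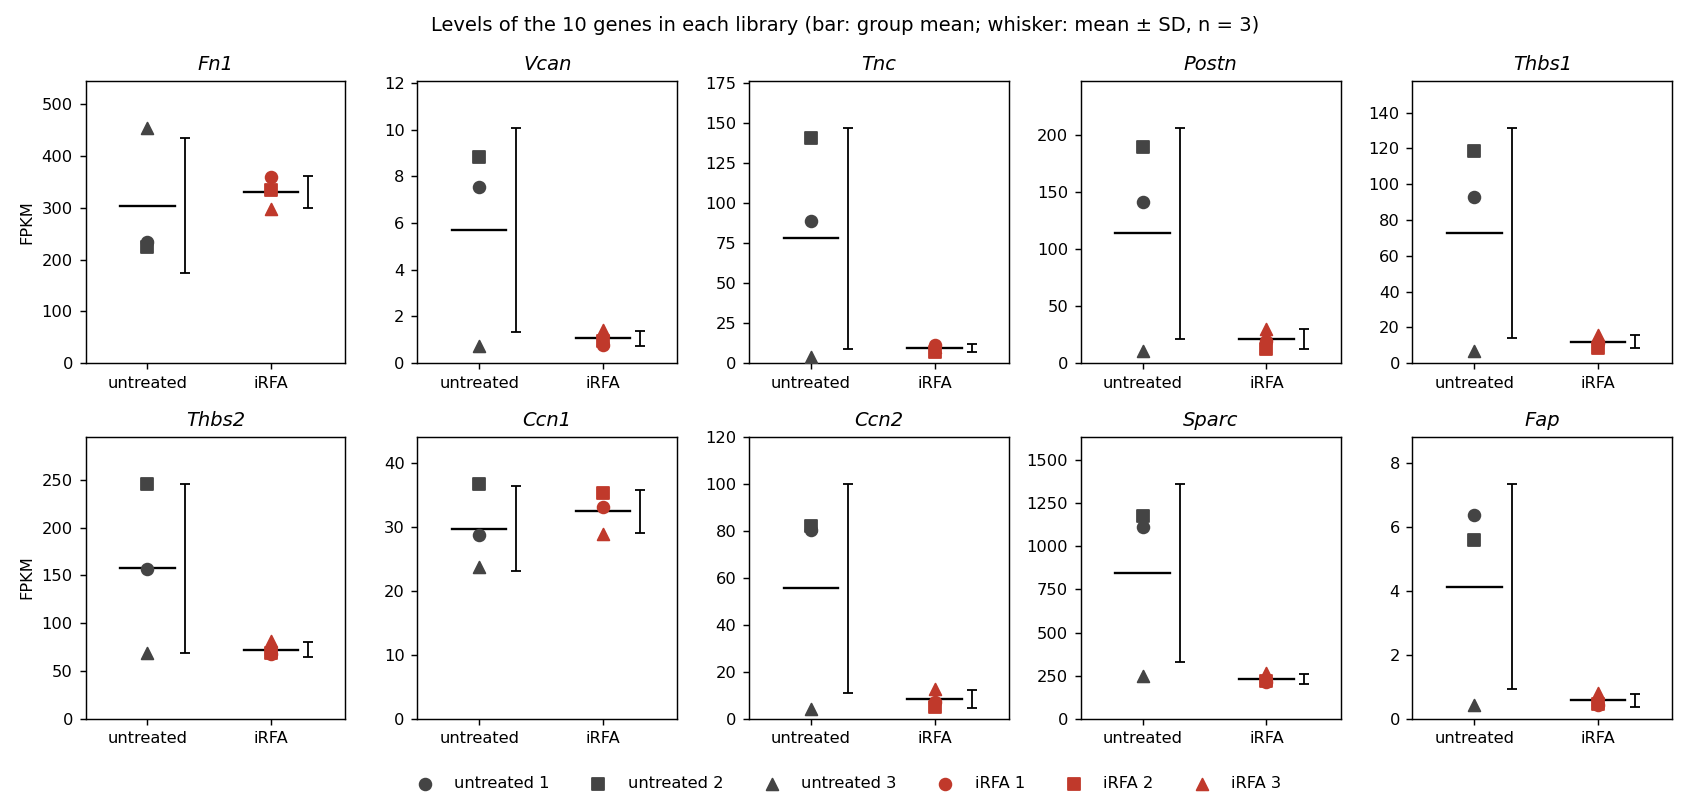
FPKM of the 10 genes (vertical axis, 1 panel per gene, each with its own scale starting at 0) in the 3 untreated and 3 iRFA libraries, with a bar at the group mean and a whisker for 1 SD on each side (n = 3). The library labelled untreated replicate 3, the grey triangle, lay far below the other untreated libraries for 8 genes and far above them for Fn1 (454 FPKM against 233 and 225 FPKM).

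Fibronectin and versican, the components on which provisional matrix is laid down, were the first and the ninth of the 10 genes by level in each iRFA library, and neither passed the test with all libraries. Fn1 (chr1:71585520-71653200, minus strand) encodes fibronectin, the adhesive glycoprotein that integrins bind in fresh wounds. Fn1 measured 233, 225 and 454 FPKM across untreated replicates 1, 2 and 3, with 359, 335 and 297 FPKM across iRFA replicates 1, 2 and 3. Every iRFA library lay above untreated replicates 1 and 2 and below the library labelled untreated replicate 3, and Fn1 was the one gene of the 10 with that order. Its means were 304 ± 130 FPKM without treatment and 331 ± 31.1 FPKM after iRFA (SD, n = 3), or 0.19 as a log2 fold change (standard error, SE, 0.29, limma adjusted p = 0.647, exact permutation p = 0.6). Without untreated replicate 3, Fn1 rose by 0.52 (SE 0.09, limma adjusted p = 0.00395), and without untreated replicates 1 and 2 the value was −0.46 (SE 0.14, limma adjusted p = 0.711).

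Vcan (chr13:89655312-89742509, minus strand) encodes versican, a large proteoglycan that binds hyaluronan. Vcan measured 7.55, 8.84 and 0.717 FPKM across untreated replicates 1, 2 and 3, with 0.785, 0.946 and 1.43 FPKM across iRFA replicates 1, 2 and 3. The iRFA libraries were all below untreated replicates 1 and 2 and all above replicate 3. The fitted log2 change of Vcan was −1.37 (SE 0.69, limma adjusted p = 0.253, exact permutation p = 0.4). It was −2.17 without untreated replicate 3 (SE 0.15, limma adjusted p = 0.000134) and 0.25 without untreated replicates 1 and 2 (SE 0.20, limma adjusted p = 0.82). Levels near 1 FPKM are compressed by the added 1, so these fold changes understate the change.

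Tenascin-C and periostin, matricellular proteins of healing wounds and of tumor stroma, had the widest and the fourth widest ranges of the 10 genes. Tnc (chr4:63959785-64047015, minus strand), whose start-site window is printed above, measured 88.7, 141 and 4.002 FPKM across untreated replicates 1, 2 and 3, with 11.6, 6.91 and 9.87 FPKM across iRFA replicates 1, 2 and 3. Its highest library was 35.1 times its lowest, and both were untreated. The group means were 77.7 ± 68.9 and 9.45 ± 2.36 FPKM (SD, n = 3), untreated first. The log2 fold change with all libraries was −1.96 (SE 1.27, limma adjusted p = 0.313, exact permutation p = 0.4). Without untreated replicate 3, Tnc fell by 3.46 on the log2 scale (SE 0.27, limma adjusted p = 0.000178), the untreated mean being 12.1 times the iRFA mean. Without untreated replicates 1 and 2 the value was 1.04 (SE 0.29, limma adjusted p = 0.71), the iRFA mean being 2.36 times the 1 untreated library left.

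Postn (chr3:54361109-54391037, plus strand) encodes periostin, which binds tenascin-C and collagen. Postn measured 141, 189 and 10.9 FPKM across untreated replicates 1, 2 and 3, with 19.5, 12.6 and 30.1 FPKM across iRFA replicates 1, 2 and 3. Again the iRFA libraries lay between the library labelled untreated replicate 3 and the other untreated libraries. The log2 fold change of Postn was −1.74 with all libraries (SE 1.10, limma adjusted p = 0.306, exact permutation p = 0.4). It was −3.00 without untreated replicate 3 (SE 0.35, limma adjusted p = 0.000851) and 0.79 without untreated replicates 1 and 2 (SE 0.50, limma adjusted p = 0.794).

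Both thrombospondins were measured, and Thbs1 varied more than Thbs2. Thbs1 (chr2:118111876-118127133, plus strand) encodes thrombospondin-1, a product of platelets and stromal cells that restrains vessel growth and activates latent TGF-beta. Thbs1 measured 92.7, 119 and 6.61 FPKM across untreated replicates 1, 2 and 3, with 11.5, 8.54 and 15.7 FPKM across iRFA replicates 1, 2 and 3. Its iRFA libraries were all above untreated replicate 3 and all below the others. The fitted log2 change of Thbs1 was −1.81 (SE 1.08, limma adjusted p = 0.289, exact permutation p = 0.4), −3.07 without untreated replicate 3 (SE 0.25, limma adjusted p = 0.000212) and 0.72 without untreated replicates 1 and 2 (SE 0.34, limma adjusted p = 0.764).

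Thbs2 (chr17:14665500-14694235, minus strand) encodes thrombospondin-2, a fibroblast product that also restrains vessel growth. Thbs2 measured 157, 246 and 68.6 FPKM across untreated replicates 1, 2 and 3, with 67.4, 68.2 and 81.1 FPKM across iRFA replicates 1, 2 and 3. Here the library labelled untreated replicate 3 fell among the iRFA libraries. The fitted log2 change of Thbs2 was −0.93 (SE 0.46, limma adjusted p = 0.25, exact permutation p = 0.2), −1.44 without untreated replicate 3 (SE 0.20, limma adjusted p = 0.00171) and 0.07 without untreated replicates 1 and 2 (SE 0.13, limma adjusted p = 0.918). The ratio of Thbs2 to Thbs1 FPKM was 1.69, 2.07 and 10.4 in untreated replicates 1, 2 and 3 and 5.89, 7.98 and 5.15 in iRFA replicates 1, 2 and 3. Thbs2 was thus the more abundant of the pair in each library, and the ratio of the untreated libraries ran from below to above those of all iRFA libraries.

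Ccn1 and Ccn2, the CCN genes among the 10, encode secreted proteins. Both are known to be induced by the YAP and TEAD factors and by mechanical load. Ccn1 had a narrow range over the libraries and Ccn2 a wide one. Ccn1 (chr3:145646976-145649981, minus strand) encodes CYR61. Ccn1 measured 28.7, 36.8 and 23.7 FPKM across untreated replicates 1, 2 and 3, with 33.1, 35.3 and 28.8 FPKM across iRFA replicates 1, 2 and 3. The groups overlapped, and the highest library was 1.55 times the lowest, the smallest such ratio of the 10 genes. The fitted log2 change of Ccn1 was 0.14 (SE 0.18, limma adjusted p = 0.592, exact permutation p = 0.6), −0.0074 without untreated replicate 3 (SE 0.13, limma adjusted p = 0.966) and 0.43 without untreated replicates 1 and 2 (SE 0.13, limma adjusted p = 0.716).

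Ccn2 (chr10:24595442-24598683, plus strand) encodes CTGF, a growth factor of fibrosis. Ccn2 measured 80.2, 82.2 and 3.90 FPKM across untreated replicates 1, 2 and 3, with 7.18, 4.97 and 12.6 FPKM across iRFA replicates 1, 2 and 3. All iRFA libraries were above untreated replicate 3 and below the other untreated libraries. The fitted log2 change of Ccn2 was −1.88 (SE 1.17, limma adjusted p = 0.30, exact permutation p = 0.4), −3.24 without untreated replicate 3 (SE 0.34, limma adjusted p = 0.000523) and 0.83 without untreated replicates 1 and 2 (SE 0.50, limma adjusted p = 0.79). The ratio of Ccn1 to Ccn2 FPKM was 0.358, 0.448 and 6.06 in untreated replicates 1, 2 and 3 and 4.62, 7.11 and 2.29 in iRFA replicates 1, 2 and 3. Ccn2 was the more abundant in untreated replicates 1 and 2 and Ccn1 in the other 4 libraries.

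**Figure D2:**
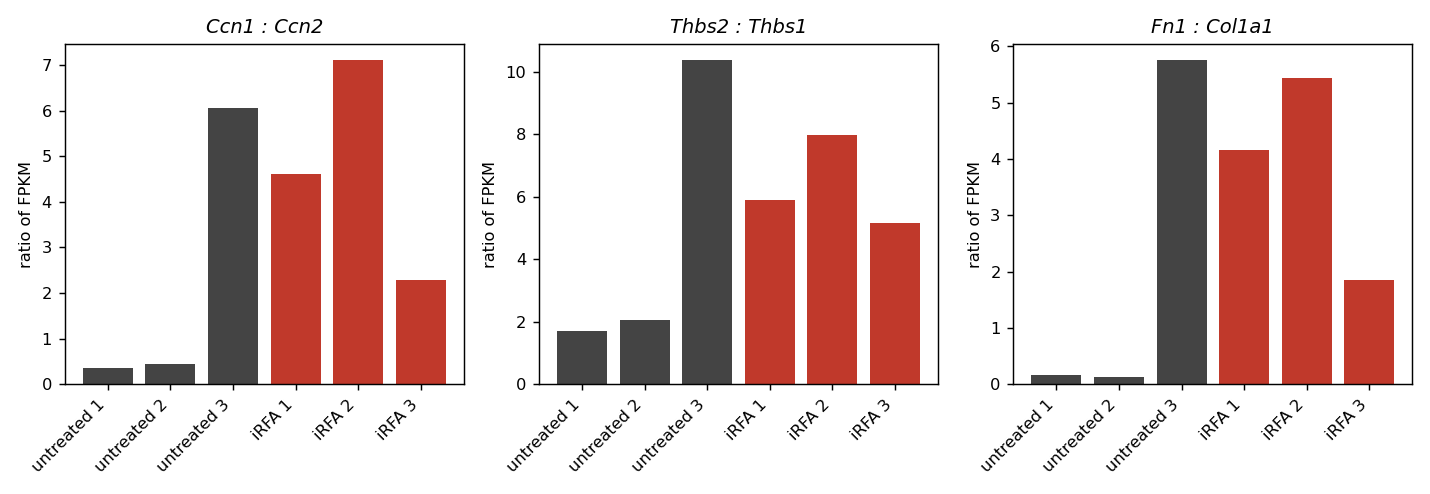
Ratios of FPKM within each library (vertical axes, from 0) for Ccn1 to Ccn2, Thbs2 to Thbs1 and Fn1 to Col1a1, 1 bar per library. Ccn1 to Ccn2 was 0.358 and 0.448 in untreated replicates 1 and 2 and 2.29 to 7.11 in the other 4 libraries, and the other ratios were likewise lowest in untreated replicates 1 and 2.

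SPARC, a collagen-binding matricellular protein, and FAP, a surface protease of activated fibroblasts, were the most abundant untreated gene and the least abundant gene of the 10. Sparc (chr11:55394500-55423183, minus strand) measured 1115, 1175 and 249.9 FPKM across untreated replicates 1, 2 and 3, with 213, 216 and 264 FPKM across iRFA replicates 1, 2 and 3. The library labelled untreated replicate 3 lay among the iRFA libraries. The means were 847 ± 518 FPKM without treatment and 231 ± 28.7 FPKM after iRFA (SD, n = 3), with a log2 fold change of −1.58 (SE 0.62, limma adjusted p = 0.25, exact permutation p = 0.2). Sparc kept a negative value in both other settings, −2.31 without untreated replicate 3 (SE 0.11, limma adjusted p = 3.7e-05) and −0.12 without untreated replicates 1 and 2 (SE 0.16, limma adjusted p = 0.886), and it was the one gene of the 10 to be negative in all 3.

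Fap (chr2:62500943-62574075, minus strand) measured 6.36, 5.58 and 0.440 FPKM across untreated replicates 1, 2 and 3, with 0.4345, 0.456 and 0.816 FPKM across iRFA replicates 1, 2 and 3. The library labelled untreated replicate 3 lay between iRFA replicates 1 and 2. The fitted log2 change of Fap was −1.40 (SE 0.65, limma adjusted p = 0.25, exact permutation p = 0.3), −2.16 without untreated replicate 3 (SE 0.13, limma adjusted p = 9.0e-05) and 0.11 without untreated replicates 1 and 2 (SE 0.17, limma adjusted p = 0.90).

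**Figure D3:**
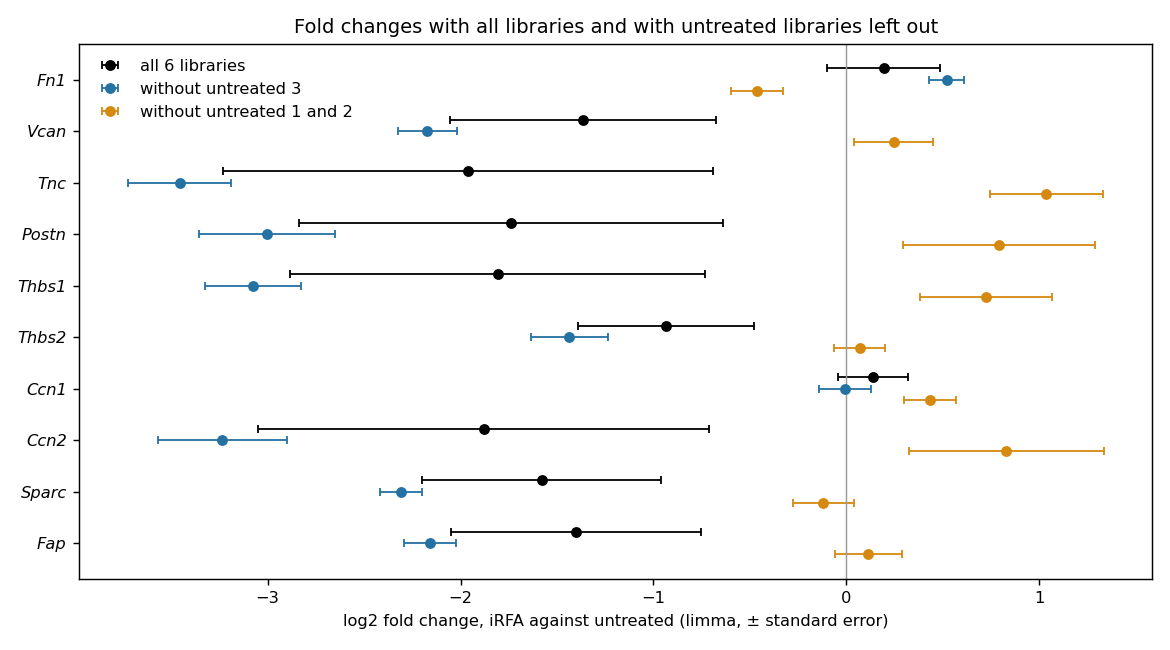
Log2 fold change of each gene after iRFA against untreated (horizontal axis, limma on log2(FPKM + 1), whiskers of 1 standard error) with all 6 libraries, without untreated replicate 3 and without untreated replicates 1 and 2. Tnc moved from −3.46 to 1.04 between the last 2 settings, and Sparc was the one gene negative in all 3.

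In 5 of the 10 genes, Tnc, Postn, Thbs1, Ccn2 and Vcan, all 3 iRFA libraries lay above the library labelled untreated replicate 3 and below untreated replicates 1 and 2, an order found in 9.63% of all genes tested. This order was noticed after the values were seen and has no test. Counting Ccn1 too, the iRFA libraries were all above that library in 6 of 10, against 25.7% of all genes, and all below it in 1 of 10 (Fn1), against 28.6%. Within the iRFA group, replicate 3 was the highest for Postn, Sparc, Thbs1, Thbs2, Ccn2, Vcan and Fap. Replicate 1 was the highest for Fn1 and Tnc and replicate 2 for Ccn1.

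**Figure D4:**
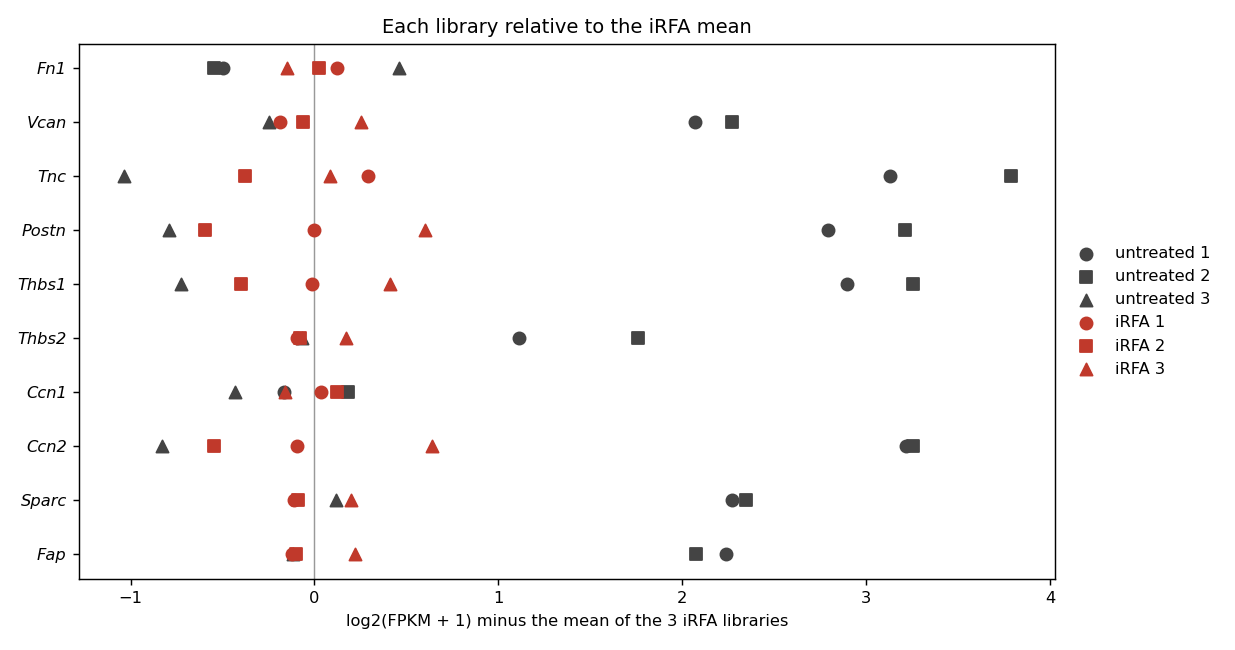
Level of each gene in each library as log2(FPKM + 1) minus the mean of the 3 iRFA libraries (horizontal axis), with 1 marker per library. For Tnc, Postn, Thbs1, Ccn2 and Vcan the library labelled untreated replicate 3 lies left of all iRFA libraries and the other untreated libraries lie far to the right, while for Fn1 the sides are swapped.

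Summed over the 10 genes, FPKM were 1951, 2229 and 823 in untreated replicates 1, 2 and 3 and 724, 689 and 742 in iRFA replicates 1, 2 and 3. Sparc made up 57.2%, 52.7% and 30.4% of that sum in the untreated libraries and 29.5%, 31.4% and 35.6% in the iRFA libraries. Fn1 made up 12.0%, 10.1% and 55.2% of it in the untreated libraries and 49.6%, 48.6% and 40.1% in the iRFA libraries. Sparc was thus first of the 10 in untreated replicates 1 and 2, and Fn1 was first in the other 4 libraries. Vcan was ninth and Fap last in each library. Fn1 kept a rank of 75 to 154 among all genes, whereas Tnc ran from rank 272 in untreated replicate 2 to rank 9212 in the library labelled untreated replicate 3.

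Profiles over the 6 libraries were compared by the root mean square difference of centred log2(FPKM + 1), which is 0 for parallel profiles. The values describe 6 libraries that fall into clusters. The closest pairs among the 10 genes were Sparc and Fap (0.116), Postn and Thbs1 (0.118) and Vcan and Fap (0.122). Thbs1 and Thbs2 were at 0.901 and Ccn1 and Ccn2 at 1.64, and the farthest pair was Fn1 and Tnc, at 2.14. Fn1 was closer to Ccn1 (0.493) than to any other of the 10. Among the 8780 genes averaging 5 FPKM or more, the closest to Fn1 were Pithd1 (0.0698), E2f5 (0.0728) and Ppp4r3a (0.0733). For Tnc they were Cpxm1 (0.217), C1qtnf3 (0.299) and Thbs4 (0.303), the last a thrombospondin. For Postn they were Thbs1, Abi3bp (0.121) and Ddah1 (0.157). For Thbs1 they were Itga11 (0.0834), a collagen-binding integrin subunit, Abi3bp (0.107) and Postn. For Ccn2 they were Prelp (0.161), a small leucine-rich matrix proteoglycan, Postn (0.167) and Sod3 (0.171). For Thbs2 they were Gm47302 (0.125), Col8a1 (0.152) and Tmem205 (0.153). For Sparc they were Olfml2b, Spns2 and Sesn3 (0.0827 to 0.0902), for Vcan Maged2, Anxa6 and Plxdc2 (0.0779 to 0.107), for Fap Add3, Ece1 and Alad (0.0650 to 0.0806), and for Ccn1 Gm13597, Clptm1 and Trnt1 (0.0610 to 0.0767).

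Relatives of these proteins and other provisional matrix genes were mostly lower when untreated replicate 3 was left out. Of 29 listed, 20 were tested, and 0 passed the test with all libraries, 16 with a negative and 4 with a positive log2 fold change (median −0.67). Without untreated replicate 3, 14 were lower and 2 higher (adjusted p under 0.05, limma, median −1.13), beside 30.3% and 33.9% of all genes, and without untreated replicates 1 and 2 the median was 0.16. Spp1, osteopontin, measured 80.8, 118 and 59.4 FPKM across untreated replicates 1, 2 and 3, with 72.0, 70.2 and 61.2 FPKM across iRFA replicates 1, 2 and 3, and the groups overlapped. Tgfbi, an adhesive protein related to periostin, was at 107, 119 and 122.2 FPKM in the untreated and 136, 131 and 122.5 FPKM in the iRFA libraries, the one relative whose groups did not overlap (log2 fold change 0.16, limma adjusted p = 0.300, exact permutation p = 0.1, the smallest that 3 against 3 allows). Smoc1, a relative of SPARC named after its values were seen, had 0.122 and 0.338 FPKM in untreated replicates 1 and 2, 9.14 FPKM in replicate 3, and between 7.66 and 8.56 FPKM after iRFA. Smoc1 thus ran the opposite way to Sparc.

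Among receptors for these proteins, 0 of 13 passed with all libraries (8 positive, 5 negative, median 0.12). The groups did not overlap for 2 of the 13, both higher after iRFA, beside 11.4% of all genes higher in that way. Without untreated replicate 3, 5 were higher and 5 lower (adjusted p under 0.05, limma), shares near those of all genes, of which 33.9% were higher and 30.3% lower in that setting. Itgb1, the beta subunit of the main fibronectin receptor, measured 129, 143 and 224 FPKM across untreated replicates 1, 2 and 3, with 238, 229 and 194 FPKM across iRFA replicates 1, 2 and 3. Like Fn1, it was higher in the library labelled untreated replicate 3 than in the other untreated libraries. Itgb5, a vitronectin receptor subunit, was at 88.0, 94.2 and 87.8 FPKM in the untreated and 105, 91.7 and 97.9 FPKM in the iRFA libraries, which overlapped.

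Genes of TGF-beta signalling and of YAP and TEAD, which are known to act upstream of several of the 10, are described by 1 list each, and their counts without untreated replicate 3 are to be read against the same 33.9% higher and 30.3% lower. Of 12 TGF-beta genes tested, 0 passed with all libraries (6 positive, 6 negative, median −0.05), and 2 were higher and 6 lower without untreated replicate 3. With all libraries, 3 of the 12 were lower after iRFA without overlap and 0 higher, beside 10.5% and 11.4% of all genes. Tgfb3, a TGF-beta ligand, measured 96.6, 83.5 and 185 FPKM across untreated replicates 1, 2 and 3, with 155, 152 and 166 FPKM across iRFA replicates 1, 2 and 3, and its iRFA libraries lay between. Tgfbr2, a TGF-beta receptor, was at 46.0, 48.5 and 52.2 FPKM in the untreated and 48.3, 46.5 and 53.1 FPKM in the iRFA libraries, which overlapped. Of 11 YAP and TEAD genes tested, 0 passed with all libraries (7 positive, 4 negative, median 0.18), and 6 were higher and 2 lower without untreated replicate 3. Ankrd1, a target of YAP as Ccn1 and Ccn2 are, measured 5.33, 4.13 and 27.3 FPKM across untreated replicates 1, 2 and 3, with 32.9, 36.2 and 27.6 FPKM across iRFA replicates 1, 2 and 3. Its groups did not overlap (log2 fold change 1.76, SE 0.66, limma adjusted p = 0.250, exact permutation p = 0.1), though the library labelled untreated replicate 3 was close to iRFA replicate 3. Wwtr1, which encodes the YAP relative TAZ, was at 45.3, 37.4 and 90.1 FPKM in the untreated and 88.2, 84.1 and 100.2 FPKM in the iRFA libraries, which overlapped. Axl, a receptor kinase and YAP target, was at 108, 111 and 134 FPKM in the untreated and 137, 148 and 142 FPKM in the iRFA libraries, without overlap. With Ankrd1, 2 of the 11 were thus higher without overlap, beside 11.4% of all genes.

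Fibroblast markers were mostly lower without untreated replicate 3, as 8 of the 10 genes were. Of 14 tested, 12 had a negative log2 fold change and 0 passed with all libraries (median −0.47), and without untreated replicate 3, 10 were lower and 1 higher (adjusted p under 0.05, limma), beside 30.3% and 33.9% of all genes. Their summed FPKM were 1349 to 4721 in the untreated and 1215 to 1560 in the iRFA libraries. Col1a1, the main chain of type I collagen, measured 1484, 1787 and 79.0 FPKM across untreated replicates 1, 2 and 3, with 86.2, 61.6 and 161 FPKM across iRFA replicates 1, 2 and 3. Col3a1, of type III collagen, was at 830.5, 940.1 and 301 FPKM in the untreated and 265, 291 and 378 FPKM in the iRFA libraries. Without untreated replicate 3, Pdgfra was the 1 marker higher (log2 fold change 0.47). Col6a1, Pdgfrb and Dcn were not called (0.27, −0.32 and −0.24), whereas Col1a1 was at −4.08. With all libraries, 2 of the 14 markers, Pdgfrb among them, were lower after iRFA without overlap and 0 higher, beside 10.5% and 11.4% of all genes. The mean of the fibroblast markers used below thus mixes genes that moved differently. The ratio of Fn1 to Col1a1 FPKM was 0.157, 0.126 and 5.75 in untreated replicates 1, 2 and 3 and 4.17, 5.43 and 1.84 in iRFA replicates 1, 2 and 3. When the level of each gene was taken relative to the mean of the fibroblast markers on the log2 scale, the libraries of the groups overlapped for 9 of the 10 genes. Sparc did not overlap and was lower after iRFA, as were 1.39% of all genes on that scale, while 4.86% of all genes were higher without overlap. Its values were 3.19, 3.08 and 2.33 in untreated replicates 1, 2 and 3 and 2.11, 2.22 and 2.06 in iRFA replicates 1, 2 and 3. This is a difference of −0.74 (exact permutation p = 0.1, the smallest that 3 against 3 allows). The differences of the other 9 genes ran from −1.12 for Tnc to 1.03 for Fn1, with exact permutation p-values from 0.2 to 0.6, and Thbs2 was at −0.10 (exact permutation p = 0.6).

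Markers of other cell types also differed among the libraries, and their part in the levels of the 10 genes was not tested. For all 9 macrophage markers the iRFA libraries lay above all untreated libraries, as they did in 11.4% of all genes tested. These 9 were thus also above the library labelled untreated replicate 3, against 25.7% of all genes. Summed FPKM of the macrophage markers were 1510 to 3012 in the untreated and 3323 to 3708 in the iRFA group. Lyz2, lysozyme of macrophages, measured 492, 486 and 1427 FPKM across untreated replicates 1, 2 and 3, with 1750.2, 1540.3 and 1734 FPKM across iRFA replicates 1, 2 and 3. Markers of smooth muscle and pericytes summed to 35.2 to 185 FPKM in the untreated and 41.2 to 54.0 FPKM in the iRFA libraries, with 5 of 7 negative. Endothelial markers summed to 35.4 to 40.8 and 30.9 to 41.8 FPKM, with 5 of 7 negative (median log2 fold change −0.15). Without untreated replicate 3, 2 endothelial markers were higher and 3 lower (adjusted p under 0.05, limma), beside 33.9% and 30.3% of all genes. Platelet markers summed to 26.1 to 36.9 and 39.3 to 53.5 FPKM, with 2 of the 4 tested positive, and most of the sum was Pf4, a platelet chemokine, at 21.3 to 35.2 FPKM without treatment and 37.6 to 50.7 FPKM after iRFA. Itga2b, a platelet integrin subunit, was at 2.99, 3.04 and 0.197 FPKM in the untreated and 0.313, 0.264 and 0.318 FPKM in the iRFA libraries, and Gp1bb, of the receptor for von Willebrand factor, at 0.833, 0.461 and 0.768 FPKM against 0.399, 0.292 and 0.250 FPKM, lower after iRFA without overlap. Skeletal muscle markers had the same order as Tnc, Postn, Thbs1, Ccn2 and Vcan in 6 of 7, against 9.63% of all genes tested. Summed FPKM of the skeletal muscle markers were 163, 202 and 1.25 in untreated replicates 1, 2 and 3 and 42.6, 48.3 and 31.7 in iRFA replicates 1, 2 and 3. Acta1, actin of skeletal muscle, was at 88.0, 111 and 0.173 FPKM in the untreated and 24.4, 25.3 and 18.2 FPKM in the iRFA libraries.

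Summed epithelial, mesothelial and keratinocyte markers set untreated replicates 1 and 2 apart from all other libraries, though not every listed gene did. The share of the 10 genes that came from such tissue was not tested. Mesothelial markers summed to 366 and 334 FPKM in untreated replicates 1 and 2 and to 1.05 to 1.71 FPKM in the other 4 libraries, with 5 of 5 negative. Upk3b, a mesothelial surface protein, was at 134 and 113 FPKM there. It is listed at 0 for untreated replicate 3 and iRFA replicates 2 and 3, and iRFA replicate 1 had 0.0440 FPKM. Epithelial and colon markers summed to 721 and 677 FPKM in untreated replicates 1 and 2 and to 1.75 to 3.33 FPKM in the others, with 5 of the 6 tested negative. For Krt8, a simple-epithelial keratin, untreated replicates 1 and 2 held 247 and 234 FPKM, and the other libraries 0.0264 to 0.122 FPKM. Cdh1, of the same list, did not separate them, at 1.66 and 3.42 FPKM against 1.26 to 2.50 FPKM. Cdx2, which defines colon epithelium, is listed at 0 in 5 libraries and was at 0.0231 FPKM in iRFA replicate 3, and Cdx1 was at most at 0.0888 FPKM. Cdx1 and Cdx2 were thus at or near 0 in all 6 libraries. The values do not show whether CT26 tumors would hold them. Keratinocyte markers summed to 72.8 and 287 FPKM in untreated replicates 1 and 2 and to 1.85 to 4.17 FPKM in the others. The effect of iRFA and these differences among the untreated tumors cannot be told apart in the fit without untreated replicate 3.

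Genes on the opposite strand overlap Fn1, Tnc, Thbs1, Ccn2 and Vcan, and the strand setting of the counting is not given in the sources used here. Of these, Gm15270, which overlaps Ccn2, was the highest, at 0.714 FPKM in untreated replicate 1.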

How the data were processed

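Bulk RNA-seq values of 6 CT26 tumors, 3 with iRFA and 3 without, were analysed, and groups and replicate numbers were taken from the labels. Total RNA was extracted with a Trizol kit per the labels, whereas the methods of the paper name another kit for RNA purification. The deposited FPKM values were estimated by the authors with StringTie from reads that had passed through FastQC and HISAT2 on GRCm38. The versions, the annotation release and the strand setting are not given in the sources used here. FPKM hold no counts, so the number of reads per library and counting intervals cannot be stated, and depth was read relative to untreated replicate 1 from the steps between low values. Whole reads were not recovered, because the value of 1 read depends on gene length. Precision comes from the spread between the tumors.

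Symbols and positions were taken from GENCODE release 21 on GRCm38, which names 32060 of 32110 identifiers. The 15560 genes averaging 0.5 FPKM or more were tested, leaving out 16550, with limma 3.58.1 in R 4.3.3 on log2(FPKM + 1), two-sided, with a variance trend, no covariates and a threshold of 0.05 on Benjamini-Hochberg adjusted p. The added 1 shrinks the fold change of low genes. Exact permutation tests, two-sided over the 20 divisions of 3 against 3, cannot give a p below 0.1. Python 3.11.15, numpy 2.4.6, pandas 2.3.3 and matplotlib 3.10.9 were used beside it. The limma test was run on simulated data first.

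The 10 genes and the gene lists were chosen with earlier results of these data known. Named are the 10 genes, from each other list the 2 of highest mean FPKM and any gene without overlap between the groups and with a 2-fold difference of means, and for each of the 10 the 3 genes of most similar profile. Markers of other cell types are given mainly as sums, with 1 or 2 genes of a list where the rule names more. Alternatives were quantile normalization, scaling by the median of ratios or to a library sum of 1000000, a pseudocount of 0.1, a minimum mean of 1 FPKM or none, no variance trend, a replicate block, each library left out in turn, and untreated replicates 1 and 2 left out together.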

Additional observations from a re-analysis of the deposited data

How the results depend on the processing

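With each library left out in turn, genes higher after iRFA numbered 0 to 5269 and genes lower 0 to 4711, and of the 10 genes 0 to 1 passed as higher and 0 to 8 as lower, each highest value being the one without untreated replicate 3. Of the 10, 0 to 1 were higher and 0 to 8 lower without overlap between the groups, with 2 lower without iRFA replicate 3. The shares over all genes were not computed for these settings. A lack of overlap is easier to reach with a library left out, so these counts are not read as a result. Without untreated replicates 1 and 2, 6 of the 10 were higher and 1 lower without overlap, beside 25.7% and 28.6% of all genes. In that setting 8 log2 fold changes turned, to −0.46 for Fn1, 1.04 for Tnc, 0.79 for Postn, 0.72 for Thbs1, 0.069 for Thbs2, 0.83 for Ccn2, 0.25 for Vcan and 0.11 for Fap, and so did 7 differences relative to the fibroblast markers, to −0.54 for Fn1, 0.95 for Tnc, 0.71 for Postn, 0.64 for Thbs1, 0.75 for Ccn2, 0.16 for Vcan and 0.032 for Fap. With single libraries left out, Ccn1 ran from −0.0074 (without untreated replicate 3) to 0.30, and Thbs2 relative to the fibroblast markers from −0.19 to 0.040 (without untreated replicate 2). The cause was not tested.

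The other alternatives changed no direction and no call of the 10 genes. Quantile normalization moved Fn1 to 0.0069. Pseudocount, filter, trend and block cannot alter whether libraries overlap and were not run for that. With the replicate block, 0 genes were higher and 0 lower. The replicate numbers were not taken as pairs. The deviations of same-numbered libraries from their group means had correlations across genes of −0.094, −0.105 and −0.23. Untreated replicate 3 stood apart from the other untreated libraries, which shapes all these deviations, so the values cannot exclude a pairing. With 3 tumors a group and a wide untreated spread, differences of the size seen here did not pass the test, and the number of reads behind low levels, such as those of Vcan and Fap, is unknown.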
